A study of Mus musculus with 6 samples.

Results

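Genes grouped as mechanosensitive channels were compared between neonatal and adult aortic valves: Piezo1, Piezo2, Trpv4, Trpv2, Trpc1, Trpc6, Trpm7, Pkd1 and Pkd2. They were chosen by gene name from the deposited table and make up 9 of its 46983 genes. The valves came from wild type C57BL/6J mice, a neonatal group at postnatal day 2 (PND2) and an adult group at 4 months of age. Each age had 3 RNA-seq libraries, each library was made from aortic valves pooled from 5 or 6 mice, and the labels name no transgene or treatment. Whether the pools shared litters is not given, so p-values measure the spread between pools.

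Most of these genes encode channels for cations, calcium among them, that have been linked to stretch, shear or swelling of the membrane. Pkd1 encodes a receptor-like protein that assembles with the channel encoded by Pkd2. PIEZO1 and PIEZO2 are opened by membrane tension itself, whereas for several TRP channels force acts together with lipids, heat, osmolarity or emptied calcium stores. The aortic valve leaflet, covered by endothelial cells and filled with interstitial cells, is stretched and sheared with each heartbeat, and polycystins and TRPV4 are also known from primary cilia.

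Between PND2 and 4 months the set of channels changed in both directions. Trpv2, Pkd1 and Pkd2 were higher in adult valves, while Piezo1, Trpm7 and Trpc6 were lower. Piezo2, Trpv4 and Trpc1 did not pass the test. Thus 6 of the 9 members were called (adjusted p under 0.05 in limma), 3 in each direction, against 35.8% of the 25903 genes tested and 42.2% of the protein-coding ones. Of all genes tested, 14.7% were called higher and 21.1% lower, which is 3810 and 5463 genes. With median scaling, which moves each library by the median of its log2 ratios to the mean library, the balance turned to 4607 higher and 4116 lower, and that of the members to 4 higher and 2 lower. Without replicate 3 at 4 months, 3 members were called, Trpv2 higher and Piezo1 and Trpm7 lower. The largest change was that of Trpv2 and the largest falls among well-expressed members were those of Piezo1 and Trpm7. For 8 of the 9 members no adult value fell within the neonatal range, and Trpv4 was the exception. Of these 8, 4 were higher and 4 lower at 4 months, where 50% of all genes separated in this way, 20% higher and 29.9% lower.

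The RPKM values are reads per length of exon, scaled for the size of the library. Library totals of 23810507 to 38994657 were inferred by taking the smallest nonzero exon value of each library, times exon length, as 1 read. With these totals every value corresponded to a whole number of reads. Members had between 22 and 38705 reads in a library, all 9 passed the filter of 0.1 RPKM in 3 libraries, and log2 fold changes are given for 4 months minus PND2 on log2(RPKM + 0.1). On this scale the median of all genes tested was -0.14. Median scaling raised that median by 0.12. In such bulk tissue, fewer cells of a type and less RNA per cell cannot be told apart. Marker lists moved between the ages. All 6 endothelial markers were lower at 4 months (5 of them with median scaling). All 6 macrophage, all 5 smooth muscle and all 5 adipocyte markers were higher. The adipocyte sums were 0.09 to 0.23 RPKM at PND2 and 252 to 1208 RPKM at 4 months. Of 6 markers each, 3 cardiomyocyte markers were lower, and of the interstitial fibroblast markers 1 was higher and 3 lower. Of 5 Schwann cell markers 2 were higher, and the 3 tested erythroid markers had adjusted p of 0.126 to 0.167.

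**Figure D1:**
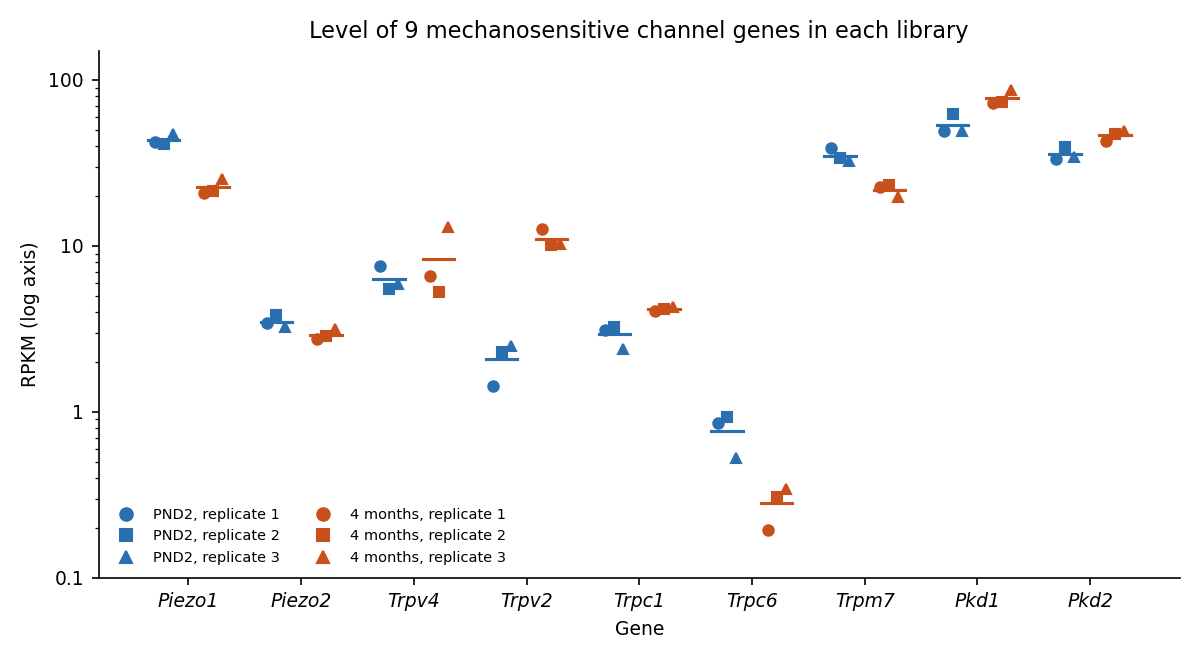
RPKM on a log axis for the 9 members, with 1 symbol per library (blue PND2, orange 4 months, shape for the replicate) and a line at the mean of each age. Trpv2 moved furthest, from 2.08 to 11.02 RPKM, the ages overlapped only for Trpv4, and the single high Trpv4 value at 4 months is replicate 3.

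3 start regions are shown because they belong to the members with the smallest adjusted p in each direction, Trpv2 and Piezo1, and because reads differed between the annotated first exons of Trpv2. Each is the 250 bases before a RefSeq transcript start (GRCm38.p6), written 5′ to 3′ on the strand of the gene, with CG dinucleotides in capitals. For Trpv2 the upstream start region is chr11:62574236-62574485 and the downstream one chr11:62575377-62575626, both on the plus strand, and for Piezo1 it is chr8:122551330-122551579 on the minus strand.
Trpv2, upstream start: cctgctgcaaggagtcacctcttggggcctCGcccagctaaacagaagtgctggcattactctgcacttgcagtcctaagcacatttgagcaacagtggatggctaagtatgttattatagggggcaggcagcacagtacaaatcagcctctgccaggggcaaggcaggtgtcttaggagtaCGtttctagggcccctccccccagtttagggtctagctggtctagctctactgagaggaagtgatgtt
Trpv2, downstream start: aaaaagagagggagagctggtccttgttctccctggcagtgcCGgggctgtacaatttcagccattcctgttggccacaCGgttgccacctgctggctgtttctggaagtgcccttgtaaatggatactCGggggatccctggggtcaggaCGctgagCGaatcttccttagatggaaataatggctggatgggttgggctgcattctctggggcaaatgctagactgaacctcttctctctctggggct
Piezo1: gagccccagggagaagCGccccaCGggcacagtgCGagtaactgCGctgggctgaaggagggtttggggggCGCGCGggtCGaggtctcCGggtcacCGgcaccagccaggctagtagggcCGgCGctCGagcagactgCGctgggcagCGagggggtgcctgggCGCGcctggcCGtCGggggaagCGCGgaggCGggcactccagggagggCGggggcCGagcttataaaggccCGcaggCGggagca
The 2 Trpv2 regions held 2 and 5 CG dinucleotides and the Piezo1 region held 26, where the median over 32851 RefSeq start regions was 6. The tataaa near the 3′ end of the Piezo1 region was the only TATAAA match on either strand among the 10 start regions of the members that were searched, and 12.4% of all start regions held one. A match of these letters is a description of the sequence and not of factor binding.

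Piezo1 (ENSMUSG00000014444, chr8:122481698-122551329, minus strand) encodes the channel through which endothelial and many other cells respond to stretch and flow. It read 42.1, 41.2 and 47.3 RPKM in the PND2 libraries and 20.8, 21.3 and 25.5 RPKM in the 4 month libraries. All adult values lay below all neonatal ones. Piezo1 was 1.93-fold lower at 4 months, with means of 43.5 ± 3.27 and 22.5 ± 2.58 RPKM (SD, n = 3) and a log2 fold change of -0.95 (SE 0.11, adjusted p = 0.00102). The fall ran along the whole gene. In the principal coding transcript each of the 51 exons was lower at 4 months, with a median log2 ratio of -0.998, and 50 of the 51 had no overlap between the ages.

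The 3′ exons of Piezo1 share 2441 bases, 24.6% of its exonic length, with Ctu2, a tRNA thiolation gene on the opposite strand. The library kit marks strand, but whether the counting used strand is not given, and Ctu2 itself read 29.98 RPKM at PND2 and 18.5 RPKM at 4 months. In the 44 exons that are clear of other genes, Piezo1 averaged 44.1 RPKM at PND2 and 21.7 RPKM at 4 months, a difference of -1.02 on the log2 scale. The change of Piezo1 was therefore as large without the shared exons.

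Endothelial markers moved with Piezo1. All 6 of Pecam1, Cdh5, Tie1, Vwf, Emcn and Egfl7 had fallen by 4 months (median -1.34 on the log2 scale). With median scaling 5 of them were called, Pecam1 not (adjusted p = 0.137). Their summed level went from between 399 and 570 RPKM to between 217 and 235 RPKM. Set against that sum in the same library, Piezo1 stood at 8.22, 10.3 and 8.29% at PND2 and at 8.85, 9.25 and 11.7% at 4 months. These ratios, chosen after the values were seen, overlapped between the ages. As a percentage of the same sum, Trpm7 went from 7.25 ± 1.39 to 9.59 ± 0.52 (SD), without overlap, while Trpc6 overlapped. Cardiomyocyte markers fell too, with 3 of 6 called lower. Their sums were 11800 to 15001 RPKM at PND2 and 4562 to 7122 RPKM at 4 months. The part of endothelial or cardiomyocyte content in the Piezo1 result was not tested. The genes whose pattern over the 6 libraries was most like that of Piezo1 were Tram1l1, Notch4, a Notch receptor of endothelial cells, and Shf, with Pearson r of 0.997, 0.997 and 0.996. Of 13728 protein-coding genes compared, 26 had r above 0.99, so such a likeness is not rare over 6 libraries.

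Piezo2 (ENSMUSG00000041482), the channel of touch receptors and proprioceptive neurons, was far less abundant. Its values were 3.41, 3.84 and 3.27 RPKM at PND2 and 2.76, 2.86 and 3.14 RPKM at 4 months. The ages did not overlap, but the gap was narrow. The log2 fold change of -0.25 had a 95% confidence interval from -0.65 to 0.14 and an adjusted p of 0.287, so a fall of the size seen for Piezo1 lay outside the interval. Within each library Piezo1 exceeded Piezo2 by 12.4, 10.7 and 14.5 times at PND2 and by 7.54, 7.45 and 8.10 times at 4 months. The log2 ratio of Piezo2 to Piezo1 was higher by 0.70 in adult valves, without overlap, and the exact 2-sided permutation test gave p = 0.1, the smallest that 3 against 3 allows. Adjusted over the 4 pairs tested in this way, p was 0.133.

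The exons of Piezo2 moved in both directions. Of 32 exons with at least 100 reads, 24 were lower and 8 higher at 4 months. Split into 5′, middle and 3′ exons in equal numbers, the 10 exons at the 5′ end had a median log2 ratio of -0.72 and the 10 at the 3′ end one of -0.15. A difference of this sign was common, since 64.7% of 5489 protein-coding genes with at least 15 such exons had the 3′ group above the 5′ group, and the median difference of all of them was 0.09. The Piezo2 difference of 0.58 exceeded that of 94.1% of them. For Trpm7 the 5′ and 3′ groups stood at -0.97 and -0.60, for Pkd1 at 0.42 and 0.62, and for Piezo1 at -1.02 and -0.96. Thus 5′ exons were relatively lower than 3′ exons in adult libraries for 6 of the 7 members with enough exons, Pkd2 being the exception, and the part of RNA quality in the member results was not tested.

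**Figure D2:**
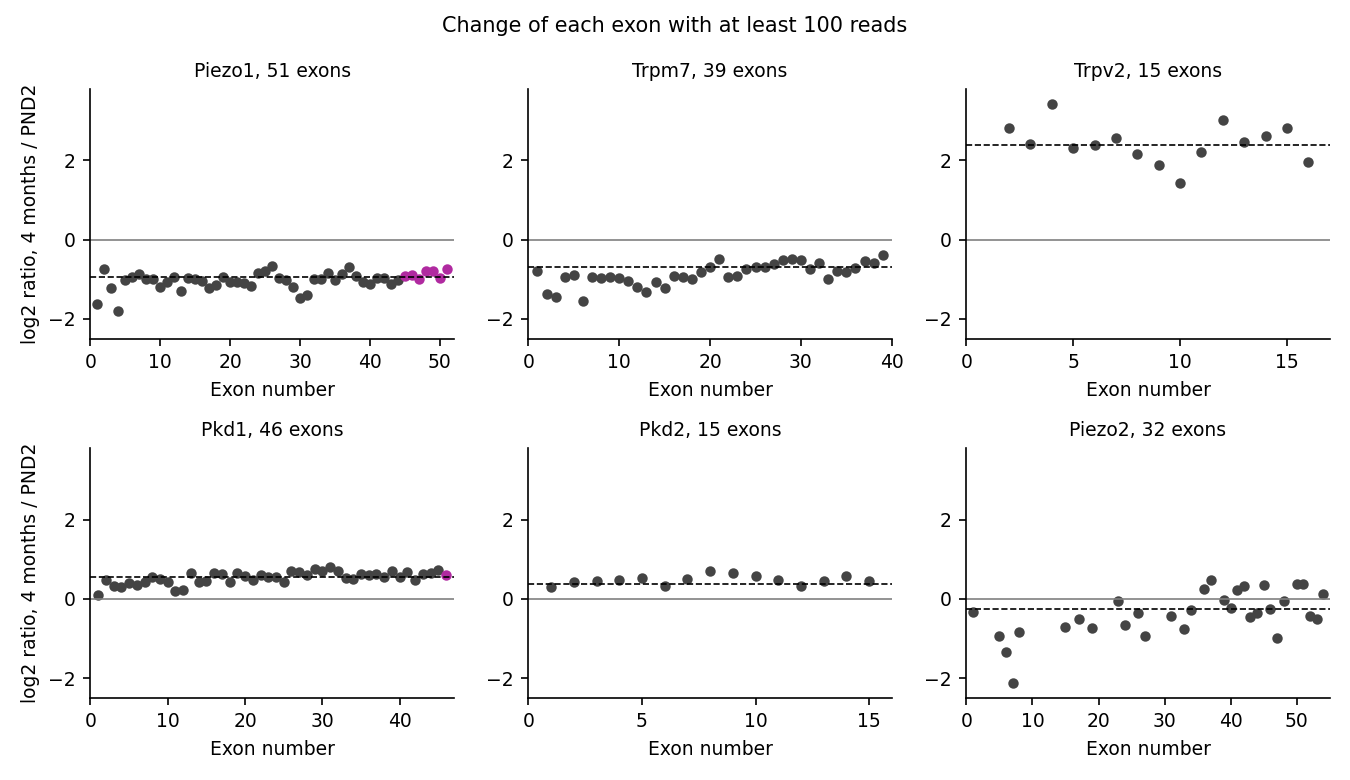
log2 ratio of the mean RPKM at 4 months to that at PND2 (plus 0.1) for each exon with at least 100 reads, against exon number in the principal transcript. The dashed line is the log2 fold change of the gene, purple points are exons that overlap another gene, and all exons of Piezo1 and Trpm7 lie below 0 while all of Trpv2, Pkd1 and Pkd2 lie above.

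Trpv2 (ENSMUSG00000018507, chr11:62574486-62600515, plus strand) encodes a calcium-permeable channel that is abundant in macrophages and is also known from muscle cells. It showed the largest change of the members. Its level was 1.44, 2.31 and 2.50 RPKM in the PND2 libraries, resting on 252, 316 and 328 reads, and 12.6, 10.2 and 10.3 RPKM in the 4 month libraries. The lowest adult value was well above the highest neonatal one. Trpv2 was 5.29-fold higher at 4 months (2.08 ± 0.56 against 11.02 ± 1.38 RPKM), with a log2 fold change of 2.38 (SE 0.23, adjusted p = 0.000439). Of the tested genes, 32.5% lay below Trpv2 at PND2 and 61.8% at 4 months. All 15 exons with at least 100 reads were higher at 4 months, by 1.43 to 3.41 on the log2 scale, with no overlap between ages in any of them.

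Reads differed between the annotated first exons of Trpv2. The first exon of the upstream start (chr11:62574486-62574600, 115 bases, directly after the upstream region printed above) had no read in any of the 6 libraries. At 4 months a count of 0 over the 3 libraries allows a level of up to 0.290 RPKM there, for counting error only, while the gene stood at 11.02 RPKM. The exon that runs from 62575547 to 62576125 and contains the downstream RefSeq start held 54 reads at PND2 and 281 at 4 months. Its mean level was 1.02 and 5.50 RPKM. Its 3′ part, from 62575974, is also the second exon of the transcript from the upstream start, and held 19 and 143 reads. Another annotated first exon (chr11:62576125-62576296) had 0 reads at PND2 and 3 at 4 months. Reads at the upstream first exon were thus not detectable at this depth, and reads in the shared part do not tell the starts apart.

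Macrophage markers rose with Trpv2. Ptprc, Csf1r, Cd68, Adgre1, Itgam and C1qa passed the test, 6 of 6 higher in adult valves (median 1.29 on the log2 scale), and their summed level went from between 113 and 137 RPKM to between 253 and 322 RPKM. As a share of that sum, Trpv2 was 1.10, 2.04 and 1.82% at PND2 and 3.91, 4.00 and 3.39% at 4 months. It was thus 2.28-fold higher relative to the macrophage sum, without overlap. Smooth muscle markers were also higher, 5 of 5, with a median of 1.48, and went from a sum of 7130 to 8227 RPKM up to 16365 to 27379 RPKM. Relative to this sum, Trpv2 was 2.03-fold higher. The sum consisted mostly of Acta2 and Tagln, with means of 4677 and 2629 RPKM at PND2. On the log2 scale Acta2, Tagln and Cnn1 rose by 1.36, 1.13 and 1.48, less than Trpv2 (2.38). Smtn rose by 2.35, about as much as Trpv2, and Myh11 by 3.47, more than Trpv2. The ratios to the macrophage and smooth muscle sums were chosen after the values were seen, and the part of either cell type in the Trpv2 result was not tested. Among the genes most like Trpv2 were Gm11710 and Mavs, an adaptor of antiviral signalling, each with r of 0.999. Among the compared genes 127 had r above 0.99 with Trpv2.

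Trpv4 (ENSMUSG00000014158, chr5:114622152-114658421, minus strand), a channel opened by swelling, warmth and shear that chondrocytes and endothelial cells use, was the member whose ages overlapped. It read 7.56, 5.48 and 5.86 RPKM at PND2 and 6.55, 5.25 and 13.1 RPKM at 4 months. Replicate 3 of the adult group stood apart from the other 5 libraries, which lay between 5.25 and 7.56 RPKM. The log2 fold change of 0.29 had a wide 95% confidence interval from -0.48 to 1.07 (adjusted p = 0.53), and it turned to -0.087 without that library. The high value was spread over the gene, since replicate 3 at 4 months was the highest library in all 15 exons with at least 100 reads.

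Cartilage genes had their highest adult values in that library. Of 5 chosen after the values were seen, Col2a1 (cartilage collagen) read 0.46, 0.76 and 16.6 RPKM in the adult libraries, and Chad, Comp, Acan and Sox9 had their highest adult value in replicate 3 too. The summed level of the 5 was 307, 538 and 1062 RPKM at 4 months and 80.8, 170 and 85.2 RPKM at PND2. The sum was 5.68-fold higher at 4 months, through Chad and Comp, whereas Acan was 7.02-fold lower and Col2a1 and Sox9 overlapped between the ages, as Trpv4 did. Of all 6 libraries, replicate 3 at 4 months was the highest for 3 of the 5 genes, and the part of cartilage in the high Trpv4 value was not tested. Within libraries, Trpv4 exceeded Trpv2 by 5.24, 2.37 and 2.34 times at PND2, while at 4 months it stood at 0.52, 0.52 and 1.27 times Trpv2. The log2 ratio of Trpv4 to Trpv2 was thus lower by 2.08 at 4 months, without overlap (exact permutation p = 0.1, adjusted over 4 pairs 0.133).

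**Figure D3:**
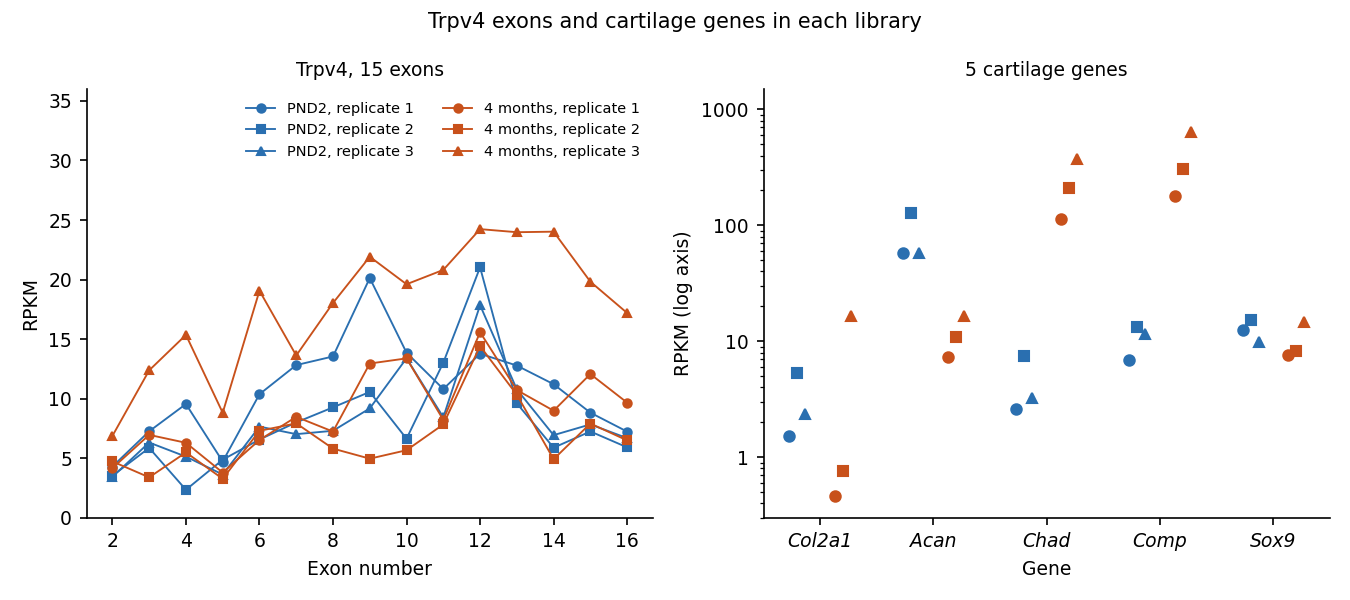
Left, RPKM of 15 Trpv4 exons in each of the 6 libraries, and right, RPKM on a log axis of 5 cartilage genes in the same libraries, with colours for the age and shapes for the replicate. Replicate 3 of 4 months is the highest line in all 15 exons and the highest adult value for all 5 cartilage genes.

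Trpc1 (ENSMUSG00000032839, chr9:95705082-95750375, minus strand), a subunit of store-operated and stretch-sensitive cation channels, had values of 3.10, 3.27 and 2.41 RPKM at PND2 and 4.05, 4.17 and 4.31 RPKM at 4 months. The adult libraries were closely grouped and all above the neonatal ones. Its log2 fold change of 0.51 (SE 0.18) had an adjusted p of 0.0652, just short of the threshold, and passed it with median scaling (0.63, adjusted p = 0.0393). Of 12 Trpc1 exons with at least 100 reads, 11 were higher at 4 months.

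Trpc6 (ENSMUSG00000031997, chr9:8544196-8680565, plus strand), a diacylglycerol-gated channel known from smooth muscle, podocytes and fibroblasts, was the least abundant member. It read 0.86, 0.93 and 0.53 RPKM at PND2, from 101, 86 and 47 reads, and 0.19, 0.31 and 0.34 RPKM at 4 months, from 22, 22 and 30 reads. Adult values were all below neonatal ones, at 2.75-fold lower on average. The log2 fold change was -1.19 (SE 0.34, adjusted p = 0.0327). This call rested on few reads and was lost with median scaling (adjusted p = 0.0512) and when any library other than PND2 replicate 3 was left out, with adjusted p up to 0.101. Relative to Trpc1 in the same library, the log2 ratio of Trpc6 was lower by 1.70 at 4 months, with no overlap between ages (exact permutation p = 0.1).

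Trpm7 (ENSMUSG00000027365, chr2:126791565-126876230, minus strand) encodes a channel for magnesium, zinc and calcium that is fused to a protein kinase and is made by most cells. Its values were 38.8, 33.7 and 32.6 RPKM at PND2 and 22.6, 23.2 and 19.6 RPKM at 4 months. No adult value reached a neonatal one. Trpm7 was 1.61-fold lower in adult valves (35.0 ± 3.27 against 21.8 ± 1.90 RPKM), with a log2 fold change of -0.68 (SE 0.11, adjusted p = 0.00366). All 39 exons were lower at 4 months, 34 of them without overlap. Ctdspl2, Srsf1, a splicing factor, and Mtf2, a Polycomb protein, were most like it, with r of 0.9997, 0.997 and 0.997. Of the 13728 genes compared, 47 had r above 0.99 with Trpm7.

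Pkd1 (ENSMUSG00000032855, chr17:24549950-24596514, plus strand) encodes polycystin-1, a large receptor-like protein mutated in polycystic kidney disease, and was the most abundant member at both ages. It read 49.0, 62.5 and 49.0 RPKM at PND2 and 73.1, 74.2 and 87.5 RPKM at 4 months. The ages did not overlap. Pkd1 was 1.46-fold higher in adult valves (53.5 ± 7.79 against 78.3 ± 8.04 RPKM), with a log2 fold change of 0.55 (SE 0.13, adjusted p = 0.0152). All 46 exons were higher at 4 months. The last exon shares 578 bases with Tsc2, a tumour suppressor gene on the opposite strand that read 39.5 and 49.1 RPKM, and over the other 45 exons Pkd1 averaged 48.4 and 70.2 RPKM. The adjusted p rose to 0.0564 without replicate 3 at 4 months and to 0.0588 without replicate 3 at PND2.

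Pkd2 (ENSMUSG00000034462, chr5:104459450-104505819, plus strand) encodes polycystin-2, the cation channel that assembles with polycystin-1. Its levels were 33.4, 39.4 and 34.1 RPKM at PND2 and 43.1, 47.0 and 49.1 RPKM at 4 months, again without overlap. Pkd2 was 1.30-fold higher (35.6 ± 3.26 against 46.4 ± 3.02 RPKM), with a log2 fold change of 0.38 (SE 0.10, adjusted p = 0.0251). This call was lost when replicate 1 or 3 at PND2, or replicate 2 or 3 at 4 months, was left out, with adjusted p up to 0.0892. The ratio of the 2 polycystin genes differed less between the ages than the ratios of the other pairs tested. Pkd1 was 1.47, 1.59 and 1.43 times Pkd2 at PND2 and 1.70, 1.58 and 1.78 times at 4 months. These ratios overlapped between the ages only in replicate 2 of each, at 1.59 and 1.58 (difference in log2 Pkd2/Pkd1 -0.17, exact permutation p = 0.2).

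Exon usage was tested on all exons with at least 1 RPKM in 3 libraries. Of 15216 genes, 5.05% were called, and Pkd2 was the only called member (adjusted p = 0.0279). The call came from 1 exon of 2221 bases (chr5:104492771-104494991) that is annotated only in a retained-intron transcript. It read 17.7, 20.6 and 18.7 RPKM at PND2 and 17.7, 18.1 and 16.1 RPKM at 4 months, while all 15 exons of the principal transcript were higher at 4 months, by a median of 0.47 on the log2 scale. Relative to the rest of Pkd2 its log2 fold change was -0.59 (adjusted p = 0.0169). Over the 15 principal exons alone, Pkd2 averaged 61.5 and 84.7 RPKM, 1.38-fold higher at 4 months. The exon call was lost when PND2 replicate 3 or any of the adult libraries was left out, with adjusted p up to 0.746.

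**Figure D4:**
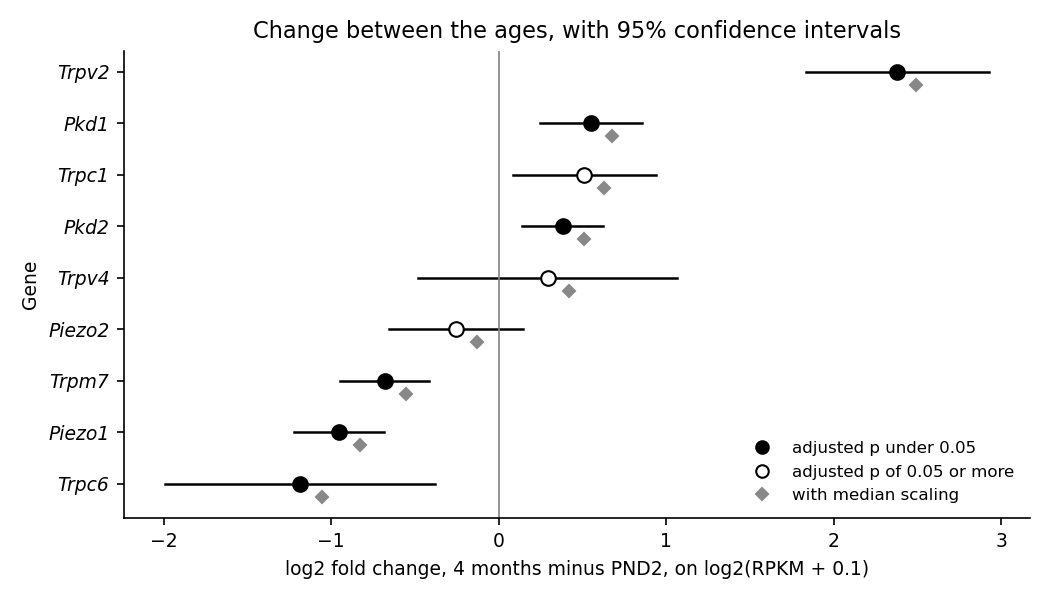
log2 fold change (4 months minus PND2) of each member with its 95% confidence interval from limma, filled where the adjusted p is under 0.05, and with the value after median scaling as a grey diamond. Trpv2 stands at 2.38 and Trpc6, with the widest interval among the called members, at -1.19.

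The order of the members differed between the ages. At PND2 the order by mean RPKM was Pkd1, Piezo1, Pkd2, Trpm7, Trpv4, Piezo2, Trpc1, Trpv2 and Trpc6, with overlapping values between the neighbours Pkd2 and Trpm7, Piezo2 and Trpc1, and Trpc1 and Trpv2. At 4 months it was Pkd1, Pkd2, Piezo1, Trpm7, Trpv2, Trpv4, Trpc1, Piezo2 and Trpc6, with overlap between Piezo1 and Trpm7 and between Trpv2 and Trpv4. Piezo1 made up 23.8 ± 2.64% of the summed RPKM of the 9 members at PND2 and 11.5 ± 0.42% at 4 months. Pkd1 went from 29.1 ± 2.90 to 39.9 ± 1.01% and Trpv2 from 1.14 ± 0.31 to 5.67 ± 1.00%. The sum itself was 180, 193 and 178 RPKM at PND2 and 186, 188 and 213 RPKM at 4 months (exact permutation p = 0.3), and these sums overlapped between the ages. With median scaling they did not overlap, and the difference grew from 12.4 to 25.8 RPKM (exact permutation p = 0.1).

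Among the other TRP and polycystin genes, 16 of 26 were expressed enough to test, and 3 were called, all lower at 4 months, which is 18.8% of those tested against 35.8% of all genes. Their median log2 fold change was -0.14, the same as that of all genes. Mcoln1, a lysosomal calcium channel, and Trpm4, a calcium-activated sodium channel, were the most abundant, at 18.1 and 17.9 RPKM and at 16.5 and 15.5 RPKM for PND2 and 4 months, and neither passed the test. Trpm5 went from 1.01 ± 0.36 to 0.16 ± 0.03 RPKM (log2 fold change -2.02, adjusted p = 0.00532), from 19 to 246 reads in a library. It shares 220 bases, 3.44% of its exonic length, with Tssc4 on the opposite strand, which read 29.6 and 21.6 RPKM. The part of Tssc4 reads in the Trpm5 result was not tested. Trpc2, also called lower, shares 97.5% of its exonic length with Xntrpc, so its reads are uncertain. When replicate 1 or 3 at PND2 was left out, 1 gene of this list was called. The nociceptor channels Trpa1 and Trpv1 did not reach the filter.

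Of 21 other channels that are gated by stretch or cell volume, 16 were tested, 2 were higher and 4 lower, with a list median of -0.32. With median scaling 3 were higher and 2 lower. Kcnma1, the pore of the large-conductance potassium channel of smooth muscle, showed the largest rise of the genes on these 4 lists, from 0.79 ± 0.18 to 6.31 ± 0.65 RPKM (log2 fold change 2.86, adjusted p = 0.000201). Panx1, which releases ATP from stretched cells, fell from 12.1 ± 1.78 to 3.13 ± 0.80 RPKM (-1.94, adjusted p = 0.000661). Tmem63a, an osmosensitive channel, and Lrrc8a, the core subunit of volume-regulated anion channels, were the most abundant of the list. Lrrc8a stood at 23.0 and 29.7 RPKM and missed the threshold (adjusted p = 0.059), which it passed with median scaling (adjusted p = 0.0348). Tmem63a and its paralog Tmem63b were called in opposite directions. Tmem63a went from 27.8 to 44.2 RPKM and Tmem63b from 28.7 to 20.5 RPKM, although the Tmem63b call was lost with median scaling (adjusted p = 0.0763). Lrrc8c and Asic1 were the other genes called lower, Asic1 not with median scaling (adjusted p = 0.0531).

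Of 18 genes for partners of the members, 17 were tested, with 5 higher and 2 lower. Between 3 and 8 were called with 1 library left out, the fewest without replicate 3 at 4 months. Atp2a2 (SERCA2, the sarcoplasmic calcium pump) was the most abundant at 649 and 946 RPKM, and only just passed the test (adjusted p = 0.0495). Cav1, the coat protein of caveolae, followed at 268 and 348 RPKM. It did not pass (adjusted p = 0.0609), except with median scaling (adjusted p = 0.0144). Mdfi, a member of the MyoD family inhibitors that bind PIEZO channels, fell from 17.7 ± 3.04 to 4.82 ± 0.68 RPKM (-1.85, adjusted p = 0.00039), while its paralog Mdfic was called higher, at 7.36 and 10.3 RPKM. Orai3, a store-operated calcium channel, rose by 0.66 on the log2 scale (adjusted p = 0.0164), and Stim1, the calcium sensor that gates such channels, rose by 0.57 (adjusted p = 0.00682). Pacsin2 was also higher, and Ganab, a glucosidase subunit needed to mature polycystin-1, was the other gene called lower, at 119 and 88.7 RPKM, a call lost with median scaling (adjusted p = 0.0644, with 6 higher and 1 lower on the list).

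All 18 calcium effector genes were tested, with 4 higher and 3 lower, and 4 were called in all without replicate 3 at PND2 or replicate 1 at 4 months. Rcan2, a calcineurin inhibitor, changed most, from 68.5 ± 6.56 to 187 ± 21.3 RPKM (1.44, adjusted p = 0.000224). Nfatc1, a calcineurin target with a known role in valve endothelium, fell from 20.8 ± 1.37 to 11.4 ± 2.14 RPKM (-0.88, adjusted p = 0.00406), together with Nfatc2 and Ppp3cc, a catalytic subunit of calcineurin. Calm2 and Capns1 were the most abundant, at 253 and 314 RPKM and at 244 and 312 RPKM. Capns1, the small subunit of calpains, passed the test (adjusted p = 0.0437), as did Capn1, and Calm2 did not (adjusted p = 0.0607). The shares called on the last 3 lists, 37.5, 41.2 and 38.9%, were near the 35.8% of all genes.

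**Figure D5:**
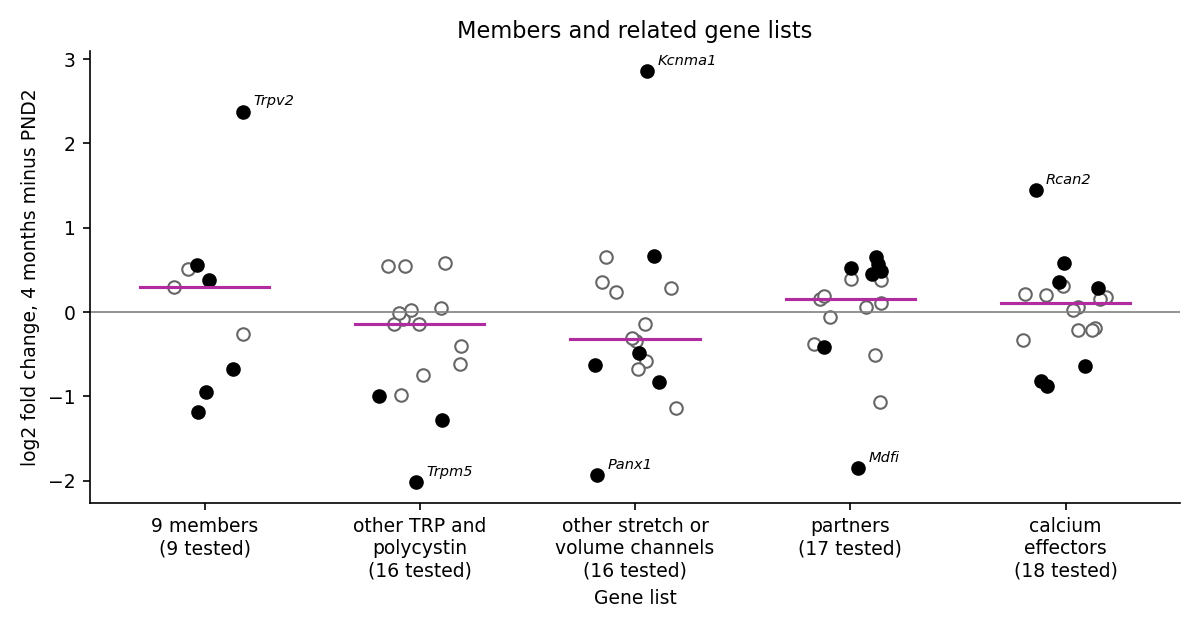
log2 fold change (4 months minus PND2) of each tested gene in the members and in 4 related lists, filled where the adjusted p is under 0.05, with a line at the median of each list. Trpv2 and Kcnma1 are the highest points and Trpm5, Panx1 and Mdfi the lowest.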

How the data were processed

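RNA was measured in aortic valves of C57BL/6J mice, 3 libraries at PND2 and 3 at 4 months. Per the study's methods, paired reads passed quality filters and trimming, TopHat 2.1.0 placed them on mm10, and easyRNASeq counted them on genes and exons of Ensembl release 83. The authors deposited RPKM values per library. Multiplying RPKM by exonic length and the inferred library total gave whole reads for 100% of gene values, and these served for depth. Reads on genes came to 2.31 to 2.36 times the totals, so a read can be counted more than once.

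From the deposited RPKM, limma 3.58.1 (R 4.3.3, eBayes with trend, Benjamini-Hochberg adjustment, threshold 0.05, 2-sided) was fitted on log2(RPKM + 0.1) for genes of at least 0.1 RPKM in 3 libraries, and diffSplice with voom weights on exons. The scripts were tested on simulated data. Tables and figures used Python 3.11.15 (pandas 2.3.3, numpy 2.4.6, matplotlib 3.10.9, scipy 1.17.1). Exons were those of the principal transcript (GENCODE M21), matched by coordinates. For each list, the named genes are the 2 highest in mean RPKM and the 2 with the largest called change. The latter needed a mean of at least 1 RPKM at the age where they were higher. Others named were called or chosen after their values were seen. The members and lists were chosen with earlier results of these data known. Protein sequences were not analysed here. A few genes that these rules name are not reported here.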

Additional observations from a re-analysis of the deposited data

How the results depend on the processing

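Of 16 alternatives for each member, all kept the direction and the side of the threshold for Piezo1 (-1.04 to -0.83), Trpm7 (-0.73 to -0.55), Trpv2 (1.97 to 2.52) and Piezo2 (-0.31 to -0.13). Trpv4 turned to -0.087 without replicate 3 at 4 months (-0.087 to 0.56 over the libraries left out). Trpc1 passed the threshold with median scaling (0.63), without a trend (0.51) and with voom on recovered reads (0.52). Trpc6 missed it with median scaling (-1.06), no filter (-1.19), quantile normalization (-1.12), the replicate block (-1.19) and an unequal-variance test like that of the study (-1.19). Trpc6 also missed the threshold with 5 of the 6 libraries left out in turn (-1.40 to -1.01 over all 6, of which -1.40 passed). It could not be tested at 1 RPKM. Pkd1 missed it with the unequal-variance test (0.55) and with 2 of the libraries left out, at 0.47 and 0.49 (0.47 to 0.67 over all 6). Pkd2 did so without a trend (0.38), with the replicate block (0.38), with the unequal-variance test (0.38) and with 4 of the libraries left out, at 0.34 to 0.37 (0.34 to 0.46 over all 6). The cause of these shifts was not tested. The unequal-variance test called 3408 of all genes, 3 members, 0 other TRP and polycystin genes, 2 other stretch or volume channels, 3 partners and 1 calcium effector, and it pools no spread across genes. Here it used log2(RPKM + 0.1) and the filter and threshold given above. The study handled low values differently and used a looser threshold, so these counts are not those of the study. With 1 library left out, 3 to 5 members, 1 to 3 other TRP and polycystin genes, 3 to 8 partners and 4 to 6 calcium effectors were called. Without replicate 3 at 4 months, 3 members were called, 1 higher and 2 lower. Exon usage called 3 members on unweighted log2 RPKM, 0 with the replicate block, and 0 to 1 with a library left out. Replicate numbers showed no sign of pairing the libraries. The deviations of same-numbered libraries had correlations of 0.04, -0.06 and -0.16, and those of differently numbered libraries ranged from -0.18 to 0.23. With 3 libraries per age this check cannot exclude a pairing. With the replicate block 4 partners were called. All ratio differences and the difference in summed RPKM (3.82 to 25.8) kept their direction under the pseudocounts, median scaling and libraries tried, in a design that cannot pass the threshold. Trpc6 rests on 22 to 101 reads in a library.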
